A study of Homo sapiens with 15 samples.

Results

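Xenograft tumors of HCT116, a line of human colon cancer cells, were compared between cells transfected with Myc-tagged wild type MOAP-1 and cells that had received the empty vector. The 3 MOAP-1 and 3 vector tumors were selected by their sample titles and are 6 of the 15 tumors of the series. The other 9 carried the MOAP-1 mutants K264R or K278R, or RASSF1A, 3 each, and served only to estimate the spread. All cells were injected into athymic nude mice, and total RNA of each excised tumor was read on its own Agilent array of human probes in 1 color. The comparison asked which transcripts differ when MOAP-1 is overexpressed, and it is described here over all genes and processes. By the study's methods the transfection was transient, so part of the cells of a MOAP-1 tumor may no longer have carried the construct when RNA was taken. The stroma of such a tumor comes from the mouse, and fewer cells of a type and less RNA per cell cannot be told apart in a whole tumor.

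MOAP-1 (modulator of apoptosis 1) is a protein with a BH3-like domain that binds BAX, the BCL2 family member that permeabilizes the mitochondrial outer membrane. Its partner RASSF1A links death receptors to MOAP-1, and MOAP-1 is then freed to act on BAX. MOAP-1 protein has a short life, because the ubiquitin ligase APC/C-CDH1 marks it for the proteasome, whereas TRIM39 stabilizes it.

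Values are log2 processed signals with the 75th percentile of each array set to 0, so 1 unit is 2-fold. A probe was used where the scanner software had called it well above background in all 3 tumors of either group, and a gene was read at its brightest probe. A gene was counted as higher or lower (rose or fell) where limma, fitted on all 15 arrays, gave a Benjamini-Hochberg adjusted p under 0.05 and the change reached 1.5-fold or more. The arrays of 1 group correlated at 0.992 to 0.995 (MOAP-1) and 0.99 to 0.992 (vector), against 0.972 to 0.985 between the groups. The 3 vector arrays shared a slide that held no MOAP-1 array, so slide and construct cannot be told apart. Of 24 markers of colon epithelium on the array, FABP1 and HNF4A were too dim to be kept. The 22 kept, among them EPCAM, CDH1, VIL1, CDX1 and CDX2, cleared the background on each of the 6 arrays, and none passed the test. Their summed level, relative to the 75th percentile signal, was 252 to 299 in MOAP-1 and 304 to 358 in vector tumors, and the part of this in the results was not tested.

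MOAP1 itself was higher in the MOAP-1 tumors. Its log2 signal was 0.34, 0.71 and 0.71 in MOAP-1 tumors 1 to 3, whereas vector tumors 1 to 3 gave -0.18, -0.53 and -0.13. The groups did not overlap, and the change was 0.86 ± 0.14 (SE), or 1.82-fold, at an adjusted p of 0.000737. The files do not give the position of the probe, so native and introduced transcripts were not separated. RASSF1, the gene of RASSF1A, read 1.85, 1.76 and 1.79 with MOAP-1, within the range spanned with vector (1.72, 1.52 and 1.81) but for 1 tumor, so that the groups overlapped (adjusted p = 0.406).

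Of 15 genes of proteins described to bind or turn over MOAP-1, MOAP1 included, 3 rose and none fell, and their median change was 0.22. Over all 24409 genes tested, 15.8% passed the test, 8.67% as higher and 7.12% as lower, and the median change was -0.01. The groups did not overlap in 11856 of these genes, and in 97.6% of those that passed. BCL2, the guardian that holds BAX-like proteins in check, gave 0.29, 0.29 and 0.39 with MOAP-1 against -0.36, -0.46 and -0.40 with vector. BAX gave 1.23, 1.48 and 1.69 against 0.86, 0.60 and 0.90. Neither gene overlapped between the groups, and they rose 1.66-fold (BCL2, adjusted p = 0.000783) and 1.60-fold (BAX, adjusted p = 0.00374). BAX was no longer past 1.5-fold without MOAP-1 tumor 3 (0.57, adjusted p = 0.0191) or without vector tumor 2 (0.58, adjusted p = 0.0221). BCL2 and BAX each have a dimmer second probe that did not pass, with a change of -0.19 for BCL2 and -0.01 for BAX. TRIM39 had a change of -0.56 and overlapped between the groups (adjusted p = 0.0703).

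**Figure D1:**
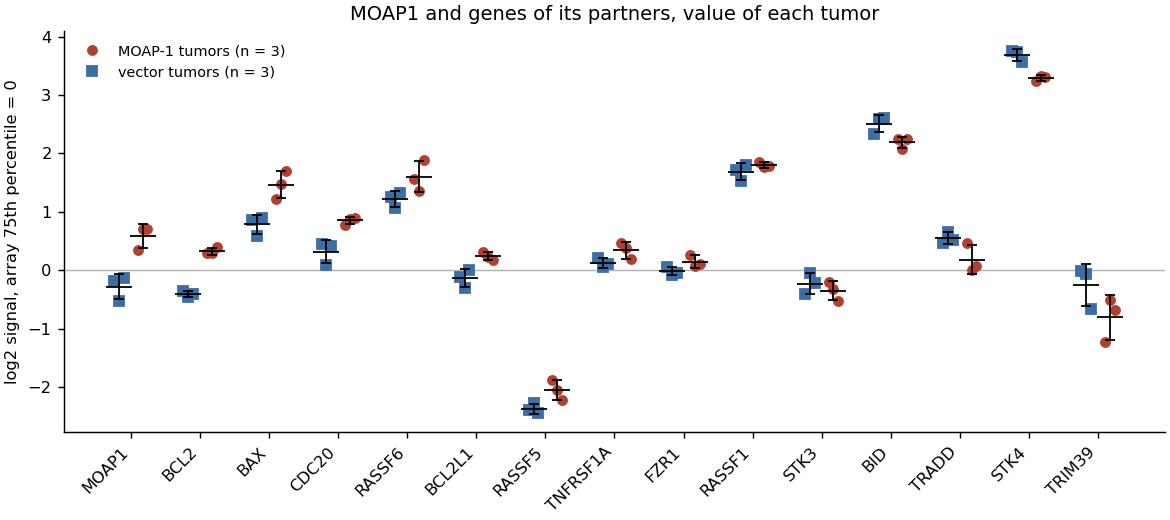
Log2 signal (y axis, 75th percentile of each array at 0) of MOAP1 and the genes of its partners (x axis, ordered by the change), with 1 point per tumor (circles, MOAP-1; squares, vector), and the mean ± SD of 3 tumors in black. MOAP1, BCL2 and BAX, at the left, lay higher in every MOAP-1 tumor than in any vector tumor.

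Of the 24409 genes, 2117 were higher and 1738 lower in MOAP-1 tumors, so that 54.9% of the calls were rises. With the median of each array in place of the 75th percentile as the zero point, 39.2% were rises, 1600 of 4077. Most changes were modest, with a median log2 change of 0.87 for the rises and -0.82 for the falls. Changes of at least 4-fold numbered 40 upward and 36 downward. In 60 of the genes that rose, no vector tumor was well above background, whereas 2 of the genes that fell were not above background in any MOAP-1 tumor. With only probes well above background on all 6 arrays, 1886 genes were higher and 1713 lower, so that 52.4% were rises. Of the genes called, 3202 were read by a single probe.

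The direction of the calls followed the brightness of the probe. In the dimmest quintile of genes 11.3% rose and 4.53% fell, and in the brightest quintile 3.42% rose and 14.2% fell. From the 2nd to the 4th quintile 11.7%, 10.2% and 6.7% rose, and 4.96%, 5.02% and 6.92% fell. The median change went from 0.10 in the dimmest to -0.19 in the brightest quintile. Of the gene lists examined, 16 had 50% or more of their members in the brightest quintile. It held few genes of double strand break repair (4 of 50), base excision repair (3 of 21), Mediator (5 of 32) and TGF-beta signaling (2 of 28). The shares over all genes include this quintile, to which few members of such lists belong. The 10 spiked control probes, RNA added in equal amounts to each sample, differed by a median of 0.22 after the same scaling (range -0.05 to 0.37), and the part of scaling in the calls was not tested.

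**Figure D2:**
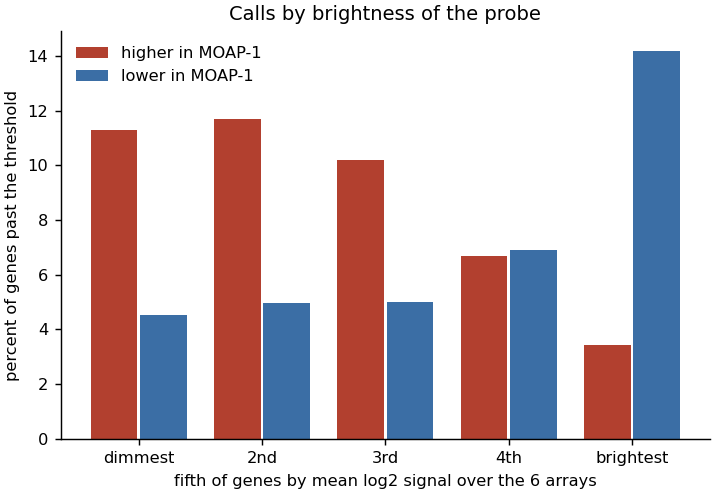
Percent of genes past the test (y axis, bars from 0) that were higher (red) or lower (blue) in MOAP-1 tumors, in quintiles of the genes by mean log2 signal over the 6 arrays (x axis). The red bars shrink from 11.3% to 3.42% and the blue bars grow from 4.53% to 14.2%.

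The vector tumors differed among themselves along the genes called. Among the genes that rose, vector tumor 2 had the lowest value of the 3 in 68.1% and vector tumor 3 the highest in 67%. Among the genes that fell, vector tumor 2 had the highest value in 60.5% and vector tumor 3 the lowest in 78%. In genes that were not called, vector tumor 2 was lowest in 36.7% and vector tumor 3 highest in 33.5%. Vector tumor 3 thus lay closest to the MOAP-1 tumors in most called genes and vector tumor 2 farthest from them. Without vector tumor 2, 2919 genes were called, and without vector tumor 3, 4332.

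Genes with 2 or more probes gave a second reading of each change. Of 4217 such genes, 2065 (49%) had all their probes on 1 side of 0, and 1478 had a call at any probe. All probes passed as higher in 87 genes and as lower in 39, whereas 49 genes had calls in both directions. Over 3552 genes read by exactly 2 probes, the changes at the brighter and at the dimmer probe correlated at r = 0.19 across genes, which are not independent replicates. Where the probes had opposite signs (1675 genes), the brighter one was the lower in 1180. Of 247 genes called higher at the brighter probe 74.5% were also above 0 at the dimmer one, and of 258 called lower 47.3% were also below 0. Of all 3552 dimmer probes 63.5% lay above 0 and 36.5% below, so each share of repeats lay above its own background by a similar margin.

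**Figure D3:**
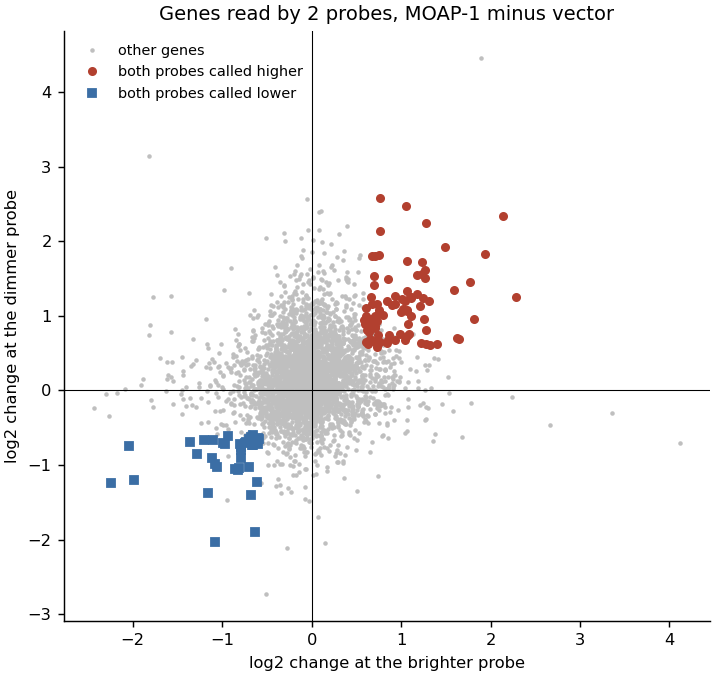
Log2 change, MOAP-1 minus vector, at the dimmer probe (y axis) against the brighter probe (x axis) of genes read by 2 probes, with 1 point per gene. Red circles mark the 86 genes with both probes called higher and blue squares the 38 with both called lower. Most other genes lie in a cloud around 0 that leans little along the diagonal.

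With every probe past the test, well above background on all 6 arrays and without overlap between the groups, 74 genes were higher and 37 lower. The largest mean rise was that of PRKDC, the catalytic subunit of the DNA-dependent protein kinase that joins broken DNA ends. Its brighter probe read 0.57, 0.44 and 0.43 in MOAP-1 tumors and -1.45, -1.65 and -1.89 in vector tumors, and its dimmer probe changed by 2.34, which gave a mean rise of 4.73-fold. SLC2A3, the glucose transporter GLUT3, read -0.97, -0.70 and -1.07 against -2.93, -2.75 and -2.88 at its brighter probe and rose 3.70-fold over both. LDHA, which turns pyruvate into lactate, read 4.82, 4.68 and 4.43 against 3.49, 3.61 and 3.67 and rose 3.40-fold, although its probes differed, at 2.08-fold and 5.55-fold. SNRNP40, a protein of the U5 splicing particle, rose 3.28-fold. The other genes among the 12 largest rises were AIDA, an axin-binding protein (3.06-fold), MAT2B, the regulatory subunit of methionine adenosyltransferase (2.78-fold), AHI1, a protein of the primary cilium (2.72-fold), RBM3, a cold-induced RNA-binding protein (2.65-fold), RBM23, a splicing regulator (2.64-fold), the pseudogene CTAGE10P (2.62-fold), GDI2, which keeps Rab GTPases inactive (2.62-fold), and EIF4G2, an initiation factor (2.39-fold). Their adjusted p was at most 0.0179 at any probe. EIF4G2 lost its call without MOAP-1 tumor 2 (adjusted p = 0.071) or without vector tumor 3 (adjusted p = 0.0529).

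Among the falls, SNORD3B-1, a copy of the U3 small nucleolar RNA that serves in ribosomal RNA processing, was the largest. It read 4.75, 4.63 and 3.32 in MOAP-1 tumors and 6.95, 6.24 and 6.22 in vector tumors, and it fell 3.33-fold over both probes. The histone gene H4C12 fell 3.02-fold and H2AC17 2.06-fold. IQSEC3, an exchange factor for ARF GTPases, fell 2.93-fold, with probe changes of -1.08 and -2.03. ATXN3L, a relative of the deubiquitinase ataxin-3, fell 2.62-fold, and RAP1GAP, which inactivates RAP1, fell 2.41-fold. PRR36 (2.40-fold), the protocadherin PCDHGA7 (2.10-fold), the G protein subunit GNAO1 (2.06-fold), the Rac regulator CHN2 (2.05-fold), the germ cell gene GGN (2.04-fold) and the synaptic scaffold CASKIN1 (2.02-fold) completed the 12 largest falls. ATXN3L lost its call without MOAP-1 tumor 1 or 3 or without vector tumor 2 or 3 (adjusted p of 0.052 to 0.0609), and H2AC17 without MOAP-1 tumor 1 or 2 or without vector tumor 1 or 2 (adjusted p of 0.0718 to 0.14). U3 copies, protocadherin gamma genes and histone genes are near-identical to their neighbours, so the gene behind such a probe is uncertain.

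Small nucleolar and Cajal body RNAs stood lower as a group. Small nucleolar RNAs guide the modification of ribosomal RNA, and the Cajal body RNAs (SCARNA genes) guide that of the spliceosomal RNAs. Of 22 measured, 11 (50%) fell and none rose, beside 7.12% of all genes that fell, and their median change was -0.60. SNORD3B-1, described above, is not in this list. SCARNA10 read -4.17, -4.47 and -4.73 in MOAP-1 tumors and -2.64, -2.86 and -3.03 in vector tumors and fell 3.05-fold (adjusted p = 0.000129). SNORA73A read -1.16, -0.78 and -1.28 against 0.70, 0.48 and 0.19 and fell 2.89-fold (adjusted p = 0.00223). SCARNA16 fell 2.56-fold (adjusted p = 0.00122). These 3 genes were picked among falls without overlap between the groups. Without vector tumor 1 or without vector tumor 2, 7 of the 22 fell. With normexp background correction 2 fell, and 5 by the t-test of the methods once adjusted. Of all 24409 genes, 269 fell with normexp and 1011 by that t-test. The host genes of small nucleolar RNAs, most of them among the brightest genes (14 of 18), had a median change of -0.14, and 3 fell: SNHG6, SNHG5 and EPB41L4A-AS1, by 1.51-fold to 1.61-fold, a count that was 1 without vector tumor 2. By RefSeq class, 3 of 4 small nuclear RNAs, which are outside this list, also fell, a class looked up after these values were seen. They were RN7SK, which restrains transcription elongation (-1.49), RNU12, the RNA of the minor spliceosome (-1.07), and SNAR-A3 (-0.85).

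Replication-dependent histone genes were the other group with many falls. Their transcripts, which end in a stem-loop and carry no poly(A) tail, supply the nucleosomes of newly made DNA. Of 61 measured, 15 (24.6%) fell and 1 (1.64%) rose, with a median change of -0.43. Of the 61, 27 belong to the brightest quintile, in which 14.2% of all genes fell. The falls were unevenly spread over the families. They comprised 9 of 14 H4 genes, 3 of 17 H2B genes, and 1 gene each of 14 H2A, 12 H3 and 4 H1 genes. The median change of the H4 genes was -0.84. H4C12 read 0.55, 0.72 and 0.88 in MOAP-1 tumors and 2.90, 2.77 and 2.44 in vector tumors, a fall of 3.97-fold at this probe (adjusted p = 7.65e-05). H4C11 read 0.89, 1.35 and 1.34 against 3.03, 3.03 and 2.54 and fell 3.19-fold (adjusted p = 0.000269). H3C15 fell 3.03-fold (adjusted p = 0.00201), from a mean of 2.01 to a mean of 0.41. H3C11 was the exception, with 0.88, 0.32 and 0.57 against -0.59, -0.54 and -0.03, a rise of 1.97-fold (adjusted p = 0.00161). H4C16, the H4 gene on chromosome 12, had a change of -0.03. Leaving out 1 tumor gave 11 to 17 falling histone genes, median centring gave 23 and normexp 3. Of all 24409 genes, 2477 fell with median centring and 269 with normexp. The coding sequences of the H4 genes are very similar, so their probes may read more than 1 gene.

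The promoters of 8 H4 genes are shown because most H4 genes moved together. They are the 3 with the largest falls (H4C12, H4C11 and H4C7), H4C4, H4C9 and H4C2, which fell less, H4C15, whose change of -0.90 did not pass (adjusted p = 0.0705), and H4C16, whose change was -0.03. The windows are the 120 bases before the transcription start, from RefSeq GRCh38.p14, 5′ to 3′ on the strand of the gene. Capitals mark TATAAA, 1 form of the TATA box, CCAAT, the CCAAT box, and GGTCCG, the core of the H4 site that the factor HINFP recognizes. H4C12 lies at chr6:27831561-27831680 (minus strand), H4C11 at chr6:27823972-27824091 (plus), H4C7 at chr6:26246997-26247116 (minus), H4C15 at chr1:149861160-149861279 (minus), H4C9 at chr6:27139162-27139281 (plus), H4C4 at chr6:26189113-26189232 (minus), H4C2 at chr6:26027284-26027403 (minus) and H4C16 at chr12:14771132-14771251 (minus).
H4C12: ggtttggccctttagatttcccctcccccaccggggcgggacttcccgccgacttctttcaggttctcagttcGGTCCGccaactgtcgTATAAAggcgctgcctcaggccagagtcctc
H4C11: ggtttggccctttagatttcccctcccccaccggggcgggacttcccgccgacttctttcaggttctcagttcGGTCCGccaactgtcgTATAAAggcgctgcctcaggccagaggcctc
H4C7: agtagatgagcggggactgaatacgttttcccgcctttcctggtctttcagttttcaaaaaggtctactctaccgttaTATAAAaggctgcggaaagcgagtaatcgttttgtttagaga
H4C15: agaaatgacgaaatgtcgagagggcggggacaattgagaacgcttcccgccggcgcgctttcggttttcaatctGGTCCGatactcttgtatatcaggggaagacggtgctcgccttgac
H4C4: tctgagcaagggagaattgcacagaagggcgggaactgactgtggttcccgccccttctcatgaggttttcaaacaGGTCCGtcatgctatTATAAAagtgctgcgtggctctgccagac
H4C9: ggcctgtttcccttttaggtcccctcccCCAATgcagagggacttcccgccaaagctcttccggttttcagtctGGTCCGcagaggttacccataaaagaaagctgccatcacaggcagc
H4C2: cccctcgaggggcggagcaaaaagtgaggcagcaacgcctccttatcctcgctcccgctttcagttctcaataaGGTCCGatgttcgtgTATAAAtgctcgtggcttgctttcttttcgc
H4C16: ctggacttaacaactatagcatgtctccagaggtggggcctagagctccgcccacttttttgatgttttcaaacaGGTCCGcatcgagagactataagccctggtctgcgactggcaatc

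The windows of H4C12 and H4C11, the H4 genes with the largest falls, share 119 of 120 bases. Searched on both strands in the 300 bases of each RefSeq promoter entry, which run past the start, GGTCCG stood in 11 of the 12 measured H4 promoters that the RefSeq table holds and in 11.2% of all 27305 promoters. It was present in 6 of 7 promoters of H4 genes that fell and in 5 of 5 of those that did not pass, H4C16 included. TATAAA stood in 6 of the 7 that fell, in 1 of the 5 others and in 12% of all promoters. Only these exact letters were counted, so a promoter without them may hold a TATA box of other letters. Of the 5 others, H4C15, H4C6, H4C8 and H4C5 had changes of -0.90 to -0.83 (adjusted p of 0.0635 to 0.0705). These changes were as large as those of H4C4, H4C9 and H4C2 (-0.79 to -0.76), which passed. H4C15, H4C6, H4C8 and H4C5 did not overlap between the groups, nor did 11856 of all 24409 genes. The 1 of the 5 that holds TATAAA is H4C16. CCAAT stood in 2 of the 7, in 1 of the 5 and in 35.7% of all promoters. The TATAAA match of H4C16 lies outside the stretch printed. CCAAT read on the other strand can share letters with GGTCCG, and such overlaps were kept. A match of letters is a description of these windows.

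**Figure D4:**
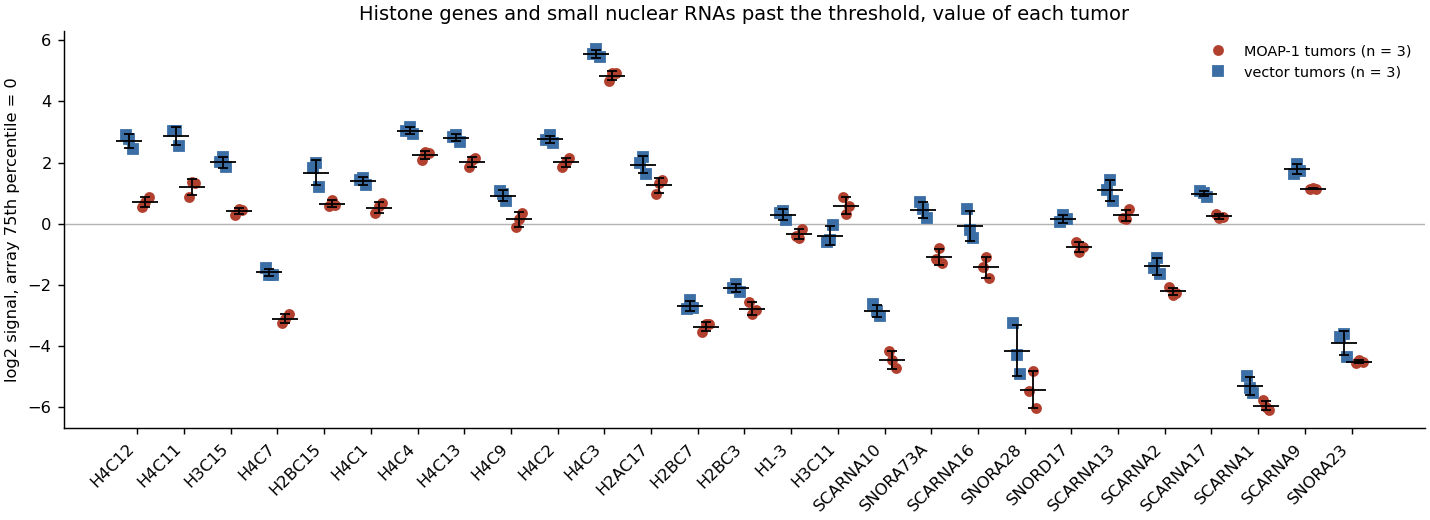
Log2 signal (y axis, 75th percentile of each array at 0) of the histone genes (H names) and of the small nucleolar and Cajal body RNAs (SNOR and SCARNA names) past the test (x axis), with 1 point per tumor (circles, MOAP-1; squares, vector) and the mean ± SD of 3 tumors in black. In 15 histone genes and 11 small RNAs the MOAP-1 mean lay below the vector mean, and in H3C11 above it.

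Genes of DNA replication tended the other way. Of 52 measured, 10 (19.2%) rose and 1 fell, with a median change of 0.17. RRM2, the small subunit of ribonucleotide reductase, read 2.15, 2.06 and 2.01 in MOAP-1 tumors and 0.14, -0.21 and 0.57 in vector tumors and rose 3.75-fold (adjusted p = 0.000129). TOP2A, the topoisomerase that untangles replicated DNA, rose 3.58-fold, and FEN1, which trims Okazaki fragments, 1.98-fold. RPA3, a subunit of the single strand binding complex, fell 1.53-fold, a call that was lost without vector tumor 2. Without vector tumor 1, 6 of the 52 rose, and with normexp 3, where 211 of all 24409 genes rose. Of 50 mitotic genes 7 rose, among them the kinesins KIF20A (2.45-fold) and KIF4A (2.40-fold, with an uncalled change of 0.34 at its dimmer probe) and the kinase AURKB (2.23-fold), and 3 fell, led by the condensin subunit NCAPH (2.21-fold), with a median change of 0.03. Among 31 genes of the G1 to S transition 3 rose, CDK2 first (2.03-fold), and 2 fell. Of 19 genes of the anaphase-promoting complex 2 rose and none fell. The H4 genes and the replication genes, both active in S phase, thus had medians on opposite sides of 0.

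DNA repair genes rose more often than they fell. In double strand break repair and checkpoint genes 9 of 50 (18%) rose and 1 fell, with a median of 0.10, and 4 of the 50 belong to the brightest quintile. After PRKDC, the largest rises were those of RNF8, a ligase that marks chromatin at breaks (2.50-fold), and NHEJ1, an end joining factor (2.16-fold), while ATRIP, the partner of ATR, was 2.14-fold lower. The fall of ATRIP was lost without MOAP-1 tumor 1 or 2 or without vector tumor 1 or 2, and its dimmer probe had a change of 0.39. In base excision repair 5 of 21 (23.8%) rose and none fell, with APEX1, the abasic site endonuclease, at 0.11, -0.01 and -0.03 against -1.28, -1.84 and -0.96 (2.61-fold, adjusted p = 0.000959) and the polymerase POLB up 2.12-fold. With normexp none of the 21 rose, where 211 of all 24409 genes rose. Nucleotide excision and mismatch repair genes gave 3 rises and 2 falls of 28.

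Among metabolic genes, the list of citric acid cycle genes had the highest share of rises of all lists examined. Of 22 measured, 7 (31.8%) rose and none fell, and the median change was 0.39. IDH3B, a subunit of the isocitrate dehydrogenase of the cycle, read 1.18, 1.40 and 1.14 in MOAP-1 tumors and 0.37, -0.72 and 0.29 in vector tumors (2.39-fold, adjusted p = 0.0043). IDH3A, its catalytic subunit, read -0.11, -0.03 and -0.12 against -1.07, -1.72 and -1.10 (2.31-fold, adjusted p = 0.00025). SUCLG1, of succinyl-CoA ligase, rose 1.77-fold, and FH, DLST, SUCLA2 and ACLY rose 1.60-fold to 1.73-fold. None of the 7 overlapped between the groups, as was so for 97.6% of all genes called. ACLY, the cytosolic ATP citrate lyase, was counted in this list although it is not an enzyme of the cycle. The number of rises was 7 without any 1 tumor and 4 with normexp, where 211 of all 24409 genes rose. CS, the first enzyme of the cycle, named after its values were seen, read 3.67, 3.71 and 3.69 against 3.75, 3.76 and 3.76 (change -0.07, adjusted p = 0.713).

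Nuclear genes of the respiratory chain and ATP synthase gave 8 rises and 5 falls of 78, with a median of -0.24. Of these, 74 belong to the brightest quintile of genes, whose median over all genes was -0.19. ATP5F1B, the catalytic subunit of ATP synthase, rose 2.86-fold, whereas NDUFB7, an accessory subunit of complex I, fell 1.92-fold. Without vector tumor 1, 10 fell, and with median centring the counts were 7 rises and 14 falls. Over all 24409 genes median centring gave 1600 rises and 2477 falls. In glycolysis, 5 of 28 rose and 1 fell around a median of 0.01, and 19 of the 28 belong to the brightest quintile. Besides SLC2A3 and LDHA, ENO2, an enolase, rose 2.46-fold, and PFKL, the liver type phosphofructokinase, fell 3.84-fold, from 4.01, 4.76 and 3.23 in vector tumors to 2.07, 1.77 and 2.33. Hypoxia-responsive genes gave 1 rise (LDHA) and 1 fall (MXI1, a MYC antagonist, 2.34-fold, with changes of 0.40 and -0.40 at its other probes) of 28. Of 31 genes of cholesterol and fatty acid synthesis 6 rose, among them MSMO1 (3.0-fold) and HMGCS1 (2.25-fold), and 1 fell. Without MOAP-1 tumor 1, 3 of the 31 rose. Genes of AMPK and insulin signaling gave 2 rises and no fall of 17.

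In protein synthesis, tRNA synthetase genes gave rises, and falls of cytosolic ribosomal protein genes were no more frequent than those of all genes. Of 77 ribosomal protein genes 5 (6.49%) fell and 1 rose, with a median change of -0.34. The share of falls was under that of all genes (7.12%) and of the brightest quintile (14.2%), to which 76 of the 77 belong. RPS26 read 6.30, 6.21 and 6.31 in MOAP-1 tumors and 6.90, 7.12 and 6.98 in vector tumors (1.65-fold, adjusted p = 0.00617), and RPL39 fell 1.59-fold. At the other probes RPS26 changed by -0.29 and -0.35 and RPL39 by -0.47 to -0.61. RPS3 was the one that rose (2.49-fold, adjusted p = 0.0325), a call that was lost without vector tumor 1 or 2 or without any of the MOAP-1 tumors. The number that fell was 8 without MOAP-1 tumor 1, 10 without vector tumor 1, 9 without vector tumor 3 and 19 with median centring. With median centring 2477 of all 24409 genes fell. Of 20 cytosolic tRNA synthetase genes, 13 of them in the brightest quintile, 5 (25%) rose and none fell. FARSB, for phenylalanine, read 0.10, 0.02 and -0.11 against -1.60, -2.50 and -1.15 (3.36-fold, adjusted p = 0.00083), and YARS1, for tyrosine, rose 3.04-fold. Without MOAP-1 tumor 1 or 2 or without vector tumor 2, 3 of the 20 rose. By the t-test of the methods, once adjusted, the number was 0, where 1069 of all 24409 genes rose. Mitochondrial ribosomal protein genes gave 10 rises (13.2%) and no fall of 76, 49 of them in the brightest quintile, around a median of -0.07, with MRPS7 first (2.13-fold), but 3 rises without vector tumor 2, where MRPS7 itself lost its call. Of 35 initiation factor genes 6 rose, EIF2B4 first (2.29-fold), and 1 fell, EIF3A (1.57-fold).

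Proteasome and chaperone genes rose more often than the average gene. Of 47 proteasome genes 10 (21.3%) rose and 2 fell, with a median of 0.20, and 30 of the 47 belong to the brightest quintile. PSMC5, an ATPase of the regulatory particle, read 1.00, 0.92 and 0.97 in MOAP-1 tumors and -0.61, -1.32 and -0.03 in vector tumors (3.07-fold, adjusted p = 0.00451). PSMD11 rose 2.50-fold, and the assembly factor PSMG4 fell 1.59-fold. By the adjusted t-test of the methods, and likewise with normexp, 4 of the 47 rose. Of all 24409 genes, 1069 rose by that t-test and 211 with normexp. Of 24 heat shock and chaperonin genes, 19 of them in the brightest quintile, 6 (25%) rose and 1 fell. TCP1, a subunit of the chaperonin that folds actin and tubulin, read 1.26, 1.3 and 1.08 against -1.15, -1.53 and -0.39 (4.72-fold, adjusted p = 0.000239), whereas its dimmer probe changed by -0.09. HSP90AB1, the constitutive HSP90, rose 3.13-fold and HSPA8, the constitutive HSP70, 2.33-fold, whereas HSF1, the factor that induces heat shock genes, fell 1.77-fold, with changes of -0.57 and 0.10 at its other probes. Genes of the endoplasmic reticulum and integrated stress response gave 4 rises and 1 fall of 29, with PDIA6, a disulfide isomerase, up 3.13-fold and DDIT3, the factor CHOP, up 1.73-fold (adjusted p = 0.0381). DDIT3 lost its call without any 1 of the MOAP-1 tumors or without vector tumor 2, and the 4 rises became 1 without MOAP-1 tumor 1 or without vector tumor 2 and 2 without MOAP-1 tumor 2 or 3. Oxidative stress genes gave 3 rises and 1 fall of 22, led by PRDX3, the mitochondrial peroxiredoxin (4.88-fold). Of 26 autophagy and lysosome genes 6 rose, among them GABARAP (2.73-fold), and 2 fell, among them WIPI2 (1.79-fold, with a change of 0.39 at its dimmer probe).

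Of 62 list counts that lay between 1 and 4 genes, 37 moved by over 1.5 times when 1 tumor was left out, so such small counts are given as found.

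**Figure D5:**
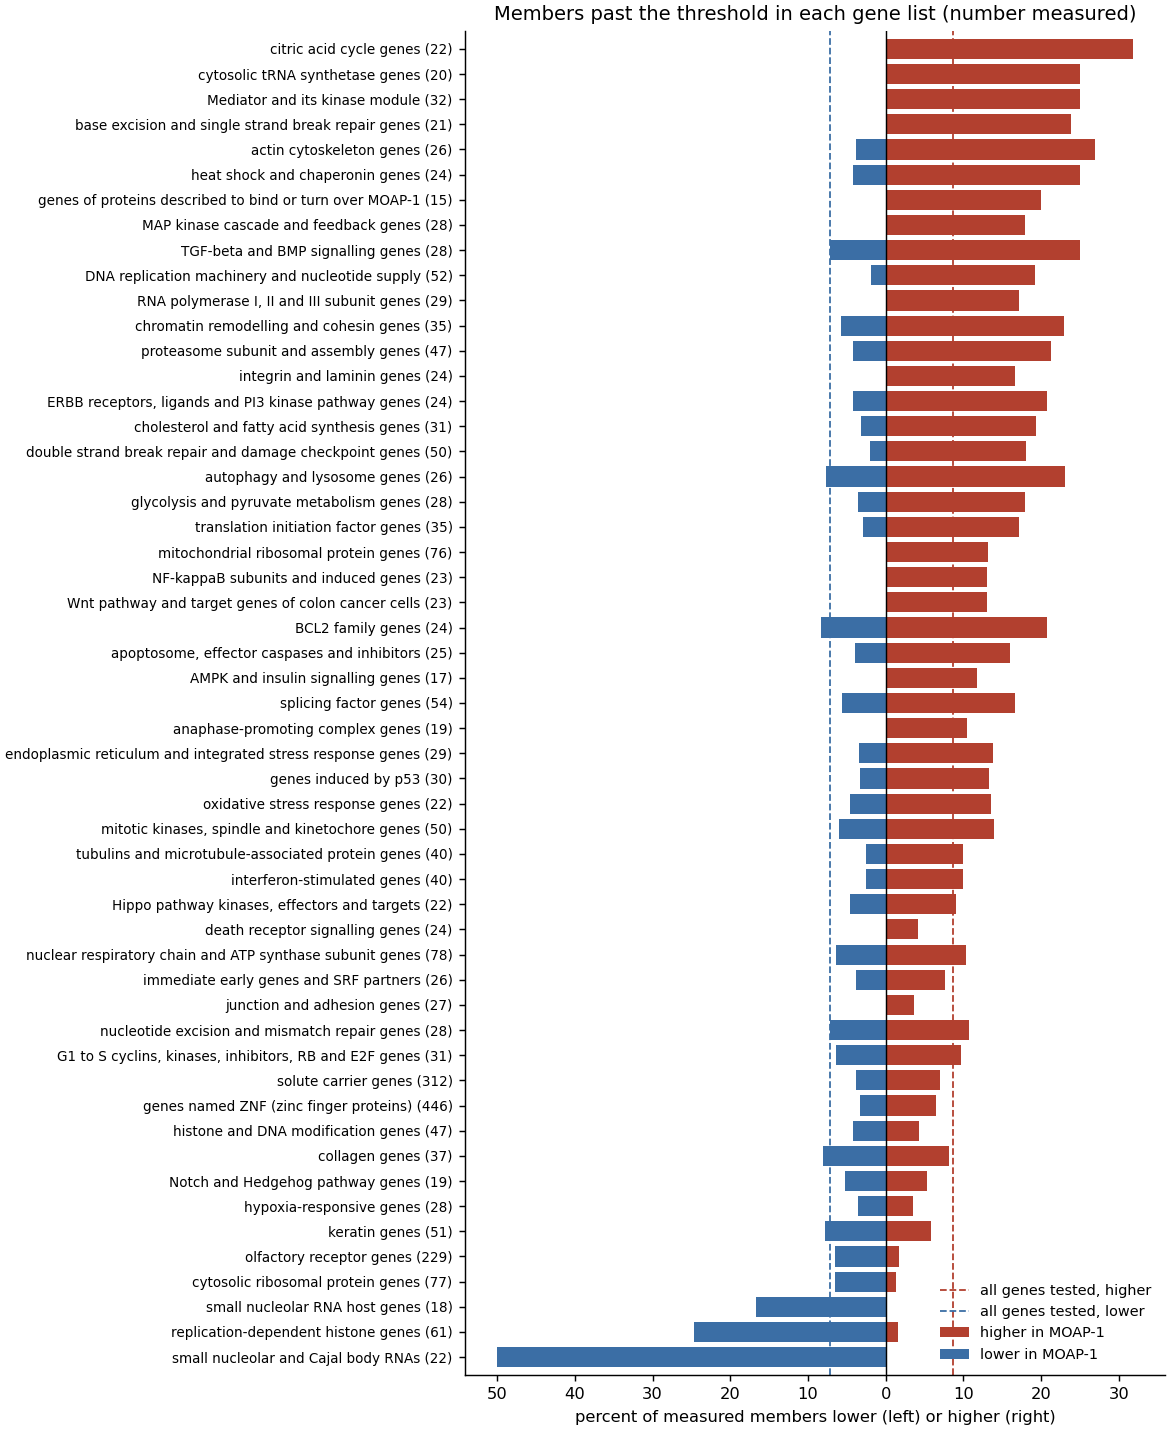
Percent of the measured members of each gene list (rows, number measured in parentheses) that were higher (red, to the right) or lower (blue, to the left) in MOAP-1 tumors, with broken lines at the percent of all genes tested (8.67% higher, 7.12% lower). The list of citric acid cycle genes reaches 31.8% to the right, and small nucleolar and Cajal body RNAs reach 50% to the left.

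Falls among apoptosis genes were near or under the share of all genes (7.12%), at 8.33% in the BCL2 family list and at most 4% in the other lists below. Rises ranged from 4.17% (death receptor genes) to 20.8% (BCL2 family list), beside 8.67% of all genes. Of 24 BCL2 family genes and partners 5 rose and 2 fell around a median of -0.07. MCL1, a guardian, read 0.08, 0.03 and -0.22 in MOAP-1 tumors and -1.53, -2.37 and -1.18 in vector tumors (3.16-fold, adjusted p = 0.000886). VDAC3, a channel of the mitochondrial outer membrane, rose 2.78-fold, whereas the BH3-only gene HRK fell 1.71-fold and the BAX relative BOK 1.62-fold. Guardians (MCL1, BCL2) and effectors (BAX, BAK1) were thus both among the 5 that rose, which became 3 without vector tumor 2. Among 25 genes of the apoptosome, effector caspases and their inhibitors 4 rose and 1 fell. APAF1, the scaffold of the apoptosome, read -3.28, -3.52 and -3.65 against -4.38, -4.71 and -4.50 (2.06-fold, adjusted p = 0.000149), CASP6 rose 1.78-fold, and DFFA, the inhibitor of the nuclease that cuts chromatin, fell 2.07-fold. Of 24 death receptor genes CASP8, the initiator caspase, alone passed (1.94-fold, adjusted p = 0.00449), with -0.91, -0.95 and -1.10 against -1.98, -2.38 and -1.47. The adaptors FADD (change -0.43, adjusted p = 0.00681) and TRAF2 (change -0.46, adjusted p = 0.0267), named after their values were seen, were under 1.5-fold. Of 30 genes induced by p53, 4 rose, led by SESN1 (3.01-fold) and ZMAT3 (2.13-fold), and MDM2 fell 1.54-fold at its brightest probe, with changes of 0.53 and 0.16 at the others. Without MOAP-1 tumor 3 or without vector tumor 2 only 1 of the 30 rose, and the fall of MDM2 was lost without MOAP-1 tumor 1 or 2 or without vector tumor 1 or 2. ZMAT3 lost its call without MOAP-1 tumor 2 or 3 or without vector tumor 2.

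Among signaling genes, those of TGF-beta and BMP signaling gave 7 rises (25%) and 2 falls of 28. Of the 28, 24 were well above background on all 6 arrays. The others were kept through 1 group only, and a gene can be kept so because it is high there. SMAD2, a transducer of TGF-beta signals, read -2.12, -2.27 and -2.41 in MOAP-1 tumors and -3.68, -3.80 and -3.84 in vector tumors (2.84-fold, adjusted p = 0.0024), TGFB1 rose 1.64-fold, and SMAD1, a transducer of BMP signals, fell 1.54-fold. The number of rises was 1 without MOAP-1 tumor 2, 3 without MOAP-1 tumor 3, 2 without vector tumor 1 and 4 without vector tumor 2, and TGFB1 itself lost its call without MOAP-1 tumor 2 or without vector tumor 2. MAP kinase cascade and feedback genes gave 5 rises and no fall of 28, with SPRED2, an inhibitor of the cascade, up 3.26-fold and PHLDA1 up 2.71-fold. Of 26 immediate early genes and SRF partners, the transcription factor SRF rose 4.88-fold, from -3.87, -5.0 and -3.25 to -1.77, -1.63 and -1.85, MCL1 rose, and JUN fell 1.52-fold, a fall that was lost without MOAP-1 tumor 2 or 3 or without vector tumor 2 or 3. Of 23 NF-kappaB genes 3 rose, with RELA, a subunit, at 1.98-fold. Only 1 of them rose without vector tumor 2. Of 40 interferon-stimulated genes 4 rose, HERC6 by 6.35-fold at its brighter probe, with a change of -0.46 at the other, and OAS1 by 1.96-fold, and 1 fell. The 4 rises became 2 without MOAP-1 tumor 1, 1 without vector tumor 2, where OAS1 lost its call, and 8 without vector tumor 3. ERBB and PI3 kinase genes gave 5 rises and 1 fall of 24, with the lipid kinase subunit PIK3CB up 2.68-fold. The 5 became 3 without vector tumor 2. Wnt pathway and target genes gave 3 rises and no fall of 23, with SOX4 at 2.18-fold and SOX9 at 1.93-fold. The rise of SOX4 was lost without MOAP-1 tumor 2 or without vector tumor 3. Hippo pathway genes gave 2 rises and 1 fall of 22, MOB1B by 2.70-fold, and Notch and Hedgehog genes 1 rise and 1 fall of 19, NOTCH1 by 2.27-fold. The dimmer probe of NOTCH1 passed in the other direction (1.94-fold higher), and those of MOB1B changed by -0.08 and -0.70.

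Mediator and RNA polymerase genes gave rises and no falls. Of 32 Mediator genes, which link activators to RNA polymerase II, 8 (25%) rose and none fell, and 5 of the 32 belong to the brightest quintile. Well above background on all 6 arrays were 31 of the 32. CDK8, the kinase of Mediator, read -0.95, -0.94 and -1.03 in MOAP-1 tumors and -2.32, -2.39 and -2.08 in vector tumors (2.44-fold, adjusted p = 0.000367), with a change of 0.28 at its dimmer probe, which did not pass, and MED27 rose 2.09-fold. With normexp none of the 32 rose, where 211 of all 24409 genes rose. Of 29 RNA polymerase subunit genes 5 rose, POLR2B by 2.14-fold, and none fell. The 5 became 3 without MOAP-1 tumor 2 or without vector tumor 2. Splicing factor genes, 40 of 54 in the brightest quintile, gave 9 rises, SRSF2 among them (2.11-fold), and 3 falls of 54, SF3A2 first (1.84-fold), and the dimmer probe of SRSF2 had a change of -0.22. Without vector tumor 3, 14 rose. Of 35 chromatin remodeling and cohesin genes 8 (22.9%) rose and 2 fell. CTCF, the insulator protein, read -0.70, -0.73 and -0.88 against -2.62, -3.18 and -2.24 (3.76-fold, adjusted p = 0.000197), BAZ2A, which silences ribosomal RNA genes, rose 3.68-fold, and SMARCA4, an ATPase of the SWI/SNF complex, fell 1.67-fold. With normexp 1 of the 35 rose, where 211 of all 24409 genes rose. Histone and DNA modifying genes gave 2 rises (SETD2 by 2.70-fold) and 2 falls (KAT6B by 2.92-fold, with a change of -0.18 at its dimmer probe) of 47, or 4.26% each, under the shares of all genes. Genes named ZNF gave 29 rises (6.5%) and 15 falls (3.36%) of 446, among them ZNF473, which acts in the end formation of histone transcripts (3.36-fold higher), and ZNF205 (3.72-fold lower). With median centring the ZNF genes gave 25 rises and 24 falls, and all 24409 genes gave 1600 rises and 2477 falls.

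In the cytoskeleton, 7 of 26 actin genes (26.9%) rose and 1 fell, with a median of 0.24. TLN1, which ties integrins to actin, read -1.75, -0.99 and -1.52 in MOAP-1 tumors and -2.53, -3.11 and -2.91 in vector tumors (2.70-fold, adjusted p = 0.00196), the myosin light chain MYL6 rose 2.47-fold and the tropomyosin TPM4 fell 1.70-fold, with a change of 0.36 at its dimmer probe. Tubulin and microtubule-associated protein genes gave 4 rises and 1 fall of 40, integrin and laminin genes 4 rises (2 without vector tumor 3) and no fall of 24, and junction and adhesion genes 1 rise and no fall of 27. Keratins (3 rises and 4 falls of 51), collagens (3 and 3 of 37) and solute carriers (22 and 12 of 312) lay near or under the shares of all genes. With median centring the solute carriers gave 14 rises and 28 falls, and without vector tumor 2 they gave 6 falls. Over all 24409 genes median centring gave 1600 rises and 2477 falls. Olfactory receptor genes gave 4 rises (1.75%) and 15 falls (6.55%) of 229 that were above background. Their share of falls was close to that of all genes (7.12%), and their share of rises was under it (8.67%). Their rises numbered 13 when MOAP-1 tumor 1 was left out, as against 8 when vector tumor 1 or 3 was.

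Markers of stromal and other host cell types varied between tumors. The probes are human and the stroma of these tumors is of the mouse, so the cells behind such a signal are not known. Stromal fibroblast markers had a median change of 0.63, but 3 of 20 rose and 1 fell. THBS2, a matrix protein, read -2.52, 0.25 and -0.11 in MOAP-1 tumors and -3.92, -3.17 and -5.35 in vector tumors (10.2-fold, adjusted p = 0.00561), and COL1A1, the main chain of collagen I, read 1.99, 4.74 and 4.30 against 1.79, 1.96 and 0.57 (4.71-fold, adjusted p = 0.0376). In both, MOAP-1 tumors 2 and 3 were high and vector tumor 3 was the lowest. COL1A1 lost its call in 5 of the 6 fits that left out 1 tumor, with changes of 1.71 to 2.50, and kept it without MOAP-1 tumor 1 (3.08). The dimmer probe of THBS2 had a change of -0.31. COL5A1 fell 3.52-fold at its brighter probe (1.04, 1.18 and 1.90 against 3.38, 3.77 and 2.42) and passed in the other direction at its dimmer probe (8.84-fold higher). Without MOAP-1 tumor 1, 8 of the 20 rose, and 1 without MOAP-1 tumor 2. The summed level of the 20 markers, relative to the 75th percentile signal, was 88.6 to 128 in MOAP-1 tumors and 86 to 105 in vector tumors, and COL3A1, COL6A3, LUM and POSTN were too dim to be kept. Leukocyte markers gave 1 rise (PTPRC, 1.65-fold, with changes of -0.38 and 0.02 at its other probes) and 2 falls (TYROBP by 3.26-fold and NKG7) of 15, with sums of 34.8 to 42.2 against 39.2 to 46.6. Endothelial markers gave 1 rise (TIE1) and no fall of 11, with sums of 5.08 to 5.64 against 5.10 to 5.39. TIE1 and ROBO4 were not well above background on all 6 arrays, and FLT1, TEK and CLDN5 were too dim to be kept. Of 11 markers of erythroid cells, muscle and fat, with sums of 14.7 to 20.1 against 17.1 to 40.2, none passed, but vector tumor 1 stood apart in the muscle genes MYH2 (4.06, against -1.72 and -3.91 in the other vector tumors) and TNNT3 (1.50, against -1.95 and -2.04). Without vector tumor 1, 3530 genes were called. The part of host cells in these and the other changes was not tested.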

How the data were processed

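Total RNA of 1 tumor per array was labeled with Cy3 and hybridized to Agilent 4x44K arrays. The authors deposited, per the file headers from Agilent Feature Extraction (10.5.1.1; the submitters' processing notes name 9.1), an intensity for each spot, background-corrected and not normalized between arrays. The deposited series table holds log2 values after GeneSpring normalization. In 7 of its 15 columns the values follow a different array of the group, and it served as an alternative.

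From 43118 spots other than controls, outlier-flagged spots were removed, log2 intensities were set to 0 at the 75th percentile of each array, and the spots of each of 34127 probes were averaged. The 75th percentile signal was 799.6 to 1022 in MOAP-1 and 631 to 767.6 in vector tumors, 85.1% to 90.8% of spots were well above background, and none was saturated. Arrays hold no counts, and precision is limited by the number of tumors. Kept were probes well above background in all 3 tumors of either group (29768, 1297 only through MOAP-1 and 141 only through vector). RefSeq GRCh38.p14 named 25419 probes (74.5%) by accession, and a gene was read at its brightest probe. limma 3.58.1 (R 4.3.3) fitted all 15 arrays with the construct as the term (10 residual degrees of freedom). The fit was tested on simulated data.

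Nothing in the labels says that tumors of 1 group came from separate transfections, so the p values measure the spread between these tumors. Named were MOAP1, RASSF1 and the partners of MOAP-1, up to 3 called genes per direction of each of 58 gene lists (no overlap, well above background on all 6 arrays), the 12 largest rises and falls over genes with all of 2 or more probes called, members needed to describe a list, and other probes of a named gene. Some items that this rule would name are not reported here. The lists, the genes and the tests were chosen with earlier results of these data known. The mean signal column is not used here, so normexp (offset 50) ran on median signals and median local backgrounds. Other alternatives were normexp without spots of a local background over 10 times the median, quantile normalization, median centring and the deposited table. Further ones were flagged spots kept, other filters, only the 6 arrays, array weights, slide as a random block, and scan day or replicate number as a term. The rest were any probe of a gene, the methods' t-test (a plain t-test on the same values) and each tumor left out.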

Additional observations from a re-analysis of the deposited data

How the results depend on the processing

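The count of 3855 genes (2117 higher, 1738 lower) stayed within 1.5 times under all alternatives but 3. It was 480 with normexp (211 higher, 269 lower), 2302 with normexp without spots of extreme background (869 higher), and 2080 by the adjusted t-test of the methods (1069 higher, 1011 lower). Vector tumors 2 and 3 held 6 and 5 such spots and the other 4 tumors none. The cause of the other differences was not tested. Normexp moved the median of all genes by -0.45, normexp without those spots by -0.15 and median centring by -0.11, so changes of named genes are given relative to it in these 3. Their adjusted p values and the counts of calls, in all and by list, come from the fits without this shift. The replicate block called 3983 genes. Same-numbered tumors of the groups correlated at -0.26, 0.13 and -0.22 in their deviations, so the numbers do not pair them. Leaving out 1 tumor gave 2919 to 4332 genes, 1553 to 2322 higher and 1366 to 2010 lower. Calling a gene by any probe gave 4767. The MOAP1 change, which is not set relative to that median, was 0.68 to 0.99 and past both thresholds under all 22 alternatives that apply to it. Over the other named genes under these, 2475 of 2706 values kept direction and side of the threshold, 217 kept the direction alone, and 14 reversed, all under normexp: CTAGE10P (-0.13), RPA3 (0.03), NHEJ1 (-0.10), RPS26 (0.02), RPL39 (0.03), EIF3A (0.09), PSMG4 (0.05), DDIT3 (-0.06), APAF1 (-0.30), ZMAT3 (-0.17), MDM2 (0.07), SETD2 (-0.08), ZNF473 (-0.12) and PIK3CB (-0.20). The losses were uneven over the alternatives. Under normexp, 32 of these other named genes kept direction and side of the threshold, and 77 kept the direction alone. By the adjusted t-test of the methods, 79 kept both and 44 the direction alone. Under each of the remaining alternatives at least 104 kept both. Signal over background limits the dim genes. Of the 2117 rises, 60 rest on signals above it in no vector tumor. With only probes well above it on all 6 arrays, 1886 genes were higher and 1713 lower.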
